A study of Rattus norvegicus with 6 samples.

Results

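The matrix-binding integrin subunits are a set of 10 genes (Itga1, Itga2, Itga3, Itga5, Itga6, Itga8, Itgav, Itgb1, Itgb5 and Itgb8), chosen by name from what is known of their ligands and looked up by gene symbol among the 19616 genes with expression values. Values were used for 9 of the 10, which are 7 alpha and 2 beta subunits, and Itgb5 was not analysed here. RNA of liver tissue was sequenced after removal of ribosomal RNA, with 1 library per rat, and the expression of each gene is given as FPKM (fragments scaled to the length of the transcript and to the mapped fragments of the library). All 6 animals were male SD rats. The fibrosis group (FL, rats FL2, FL5 and FL12) received CCl4, a solvent that injures hepatocytes, mixed with olive oil in equal parts at 2 mL/kg by intraperitoneal injection 2 times a week for 5 weeks. The control group (CL, rats CL5, CL6 and CL7) received olive oil alone in the same volume. The sequenced rats were a part of the animals treated in each group, and their ages are not given in the sources used here.

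Integrins are receptors that hold cells to the extracellular matrix, and each is a pair of 1 alpha and 1 beta subunit. The alpha subunit largely sets the ligand. Itga1 and Itga2 serve collagen receptors, Itga3 and Itga6 serve laminin receptors, and Itga5, Itga8 and Itgav serve receptors of proteins that carry the short peptide motif RGD, such as fibronectin, vitronectin and nephronectin. Itgb1 can pair with every one of these alpha subunits, whereas Itgb8 pairs with Itgav and is known for the release of active TGF-beta from its latent complex. In the liver, stellate cells and the myofibroblasts derived from them are known for RGD-binding and collagen-binding integrins, which link the scar matrix to the contractile cytoskeleton.

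The sum of FPKM over all genes was 309425 to 340467 in CL and 272110 to 309226 in FL livers. The number of reads behind each value was not worked out here. Steps among the lowest values of U6 genes, whose small nuclear RNAs are of similar length, gave a relative depth of 0.656 to 1 in the CL rats and 0.667 to 0.724 in the FL rats. Of the FL rats, FL2 stood apart from the others, since it had the lowest FPKM of its group for 8 of the 9 members. The same held for 51.2% of the genes tested and for 67.5% of the genes called upregulated, so the log2 fold changes of the members tested are also given without FL2, and counts of other lists where leaving it out changed them by more than 1. Leaving out the lowest rat of a group raises the mean of that group. For the 8 members, larger estimates without FL2 therefore follow from the choice of the rat. Where 3 values follow each other without rat names, the CL rats stand in the order CL5, CL6, CL7 and the FL rats in the order FL2, FL5, FL12.

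Whether the receptors of the matrix differed between the fibrotic and the control liver was asked by comparing the FL with the CL group. Itga8 rose most among the members, from 0.490 ± 0.0529 FPKM (SD, n = 3) in the CL group to 5.57 ± 2.74 (SD, n = 3) in the FL group. Itgb1, the shared beta subunit, was higher by a smaller factor, with 20.5 ± 1.03 FPKM in the CL and 34.0 ± 5.67 FPKM in the FL group. For the abundant alpha subunits Itga1, Itga5, Itga6 and Itgav, the FL mean lay between 1.13 and 1.41 times the CL mean, and none of these 4 passed the test. In bulk tissue, fewer or more cells of a type and less or more RNA per cell cannot be told apart.

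Differentially expressed genes (DEGs) had a Benjamini-Hochberg adjusted p from limma under 0.05 together with a change of 2-fold or more. The test used log2(FPKM + 0.1), a scale that understates the change of genes with low FPKM, and was run on 14864 genes whose mean over the 6 rats reached 0.1 FPKM. Of the 9 members 8 were tested, and Itga2 lay below that mean. Of the 8, 1 was an upregulated DEG (Itga8), where 9.29% of all genes tested were, and 0 were downregulated DEGs, where 0.935% of all genes were. At an adjusted p under 0.05 without a limit on the size, 2 members were higher in the FL group (Itga8 and Itgb1), against 16.9% of all genes tested. At an unadjusted p under 0.05 in limma, 3 members were higher and 0 were lower, against 31.5% and 4.04% of all genes tested. In 5 of the 9 members all FL rats lay above all CL rats (Itga5, Itga8, Itgav, Itgb1 and Itgb8), an arrangement that 35.7% of the genes tested showed, and 0 members had all FL rats below all CL rats, against 4.78% of the genes tested. Over all genes, 1381 were upregulated and 139 downregulated DEGs, and 453 and 231 with quantile normalization. With 8 members tested, their counts are a description and do not set the list apart from other genes.

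**Figure D1:**
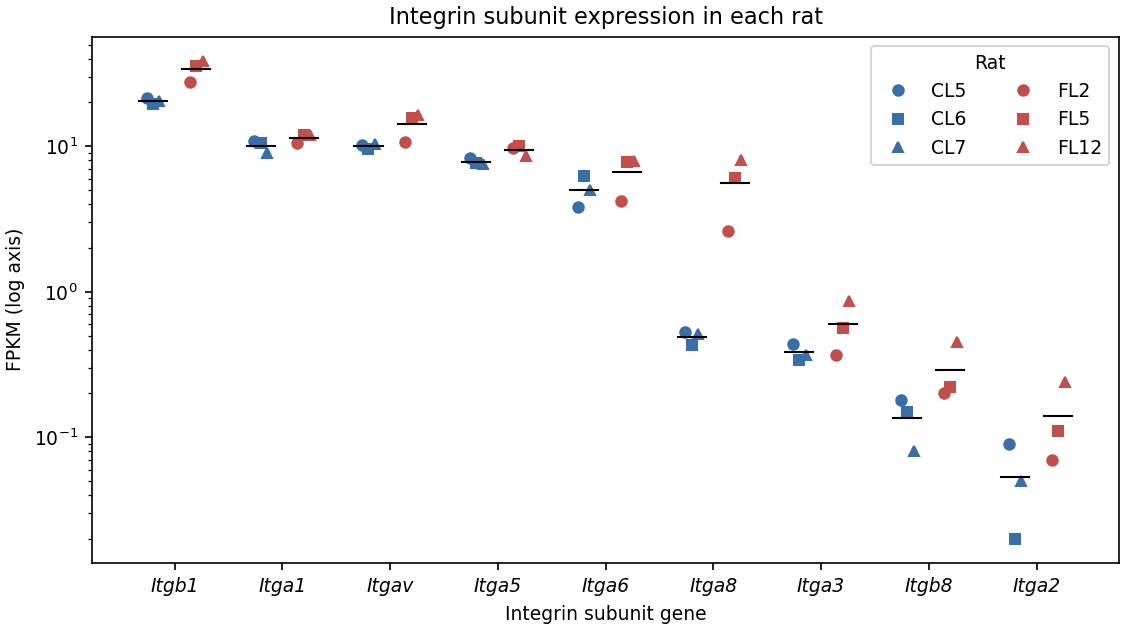
FPKM of the 9 integrin subunits in each rat on a log axis, with the CL rats in blue, the FL rats in red, 1 symbol per rat and a black line at each group mean (n = 3). The symbols of the groups lie far apart for Itga8 (0.43 to 0.53 FPKM in the CL and 2.62 to 8.05 FPKM in the FL rats) and overlap for Itga1, Itga2, Itga3 and Itga6.

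Among the subunits of RGD receptors, Itga8 (ENSRNOG00000016538, chromosome 17) pairs with Itgb1 and is best known as the receptor of nephronectin. Its FPKM was 0.53 in CL5, 0.43 in CL6 and 0.51 in CL7, and 2.62 in FL2, 6.03 in FL5 and 8.05 in FL12. The CL rats lay close together at a low level, whereas every FL rat was higher than each of them, FL2 least and FL12 most. Relative to the CL mean, expression was 5.35 times as high in FL2, 12.3 times in FL5 and 16.4 times in FL12. The log2 fold change was 3.13 (SE 0.37, 95% interval 2.26 to 3.99, adjusted p = 0.00371), which was the 42nd largest increase among the 14864 genes tested. Itga8 passed both limits of a DEG in each of 14 alternative analyses, with log2 fold changes of 2.04 to 3.59 and adjusted p-values of 0.000563 to 0.0289. The largest of these estimates, 3.59, came from the analysis without FL2. On the scale of all genes, Itga8 lay above 23.1% of the genes tested by its CL mean and above 64.4% by its FL mean.

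Itgav (chromosome 3) is the alpha subunit that pairs with the largest number of beta subunits and takes part in the binding of vitronectin and of latent TGF-beta. It was measured at 10.20, 9.65 and 10.38 FPKM in the CL rats and at 10.65, 15.61 and 16.50 in the FL rats. FL5 and FL12 lay well above the CL rats, whereas FL2 exceeded the highest of them by a small margin, so the groups did not overlap but nearly met. Itgav had a log2 fold change of 0.47 (SE 0.17, 95% interval 0.074 to 0.87, adjusted p = 0.0930) and missed the threshold. Without FL2 it was 0.67 with an adjusted p of 0.00944, and over the 14 alternatives the adjusted p ranged from 0.00944 to 0.326.

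Itga5 (chromosome 7), the alpha subunit of the classical fibronectin receptor, had 8.30, 7.72 and 7.51 FPKM in the CL rats and 9.74, 10.06 and 8.62 in the FL rats. Here FL12 was the lowest FL rat, the only member for which this was so, and the groups were separated by a narrow gap. The log2 fold change was 0.27 (SE 0.12, 95% interval -0.0013 to 0.54, adjusted p = 0.142). The increase of Itga5 was close to the median of all genes and was 0.045 with median scaling, 0.016 with quantile normalization and 0.25 without FL2 (adjusted p = 0.193).

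Of the collagen-binding subunits, Itga1 (chromosome 2) is known from stellate cells and sinusoidal endothelium and had 10.92, 10.49 and 8.95 FPKM in the CL rats and 10.59, 11.90 and 11.93 in the FL rats. FL2 lay between the CL rats, and the groups overlapped. Expressed as mean ± SD over 3 rats, Itga1 was 10.1 ± 1.04 FPKM in the CL and 11.5 ± 0.765 FPKM in the FL group. The log2 fold change was 0.18 (SE 0.12, 95% interval -0.10 to 0.47, adjusted p = 0.321), so an increase of more than 1.38-fold lay outside the interval. Its sign turned with the scaling, to -0.040 with median scaling and -0.028 with quantile normalization, and without FL2 it was 0.24 (adjusted p = 0.209).

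Itga2, the alpha subunit of the collagen receptor of platelets and epithelia, was near the lower end of the values on the same chromosome 2. It had 0.09, 0.02 and 0.05 FPKM in the CL rats and 0.07, 0.11 and 0.24 in the FL rats. FL12 was the highest rat, and FL2 lay below CL5, so the groups overlapped. Where an alternative filter or a smaller set of rats let Itga2 into the test (4 of the alternatives), its adjusted p was 0.236 to 0.603.

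Of the laminin-binding subunits, Itga6 (chromosome 3) pairs with Itgb1 or Itgb4 and marks cells that sit on a basement membrane. It had 3.83, 6.22 and 5.02 FPKM in the CL rats and 4.21, 7.84 and 7.96 in the FL rats. FL5 and FL12 exceeded every CL rat, but FL2 was lower than CL6 and CL7, and the CL rats themselves were widely spread. Itga6 had a log2 fold change of 0.37 (SE 0.28, 95% interval -0.26 to 1.01, adjusted p = 0.364). Without FL2 it was 0.67, with an adjusted p of 0.0590 (0.0590 to 0.866 over the alternatives).

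Itga3 (chromosome 10), the other laminin-binding alpha subunit of the set and a subunit of epithelial cells, was more than 10 times less abundant than Itga6 in both groups. Its FPKM was 0.44, 0.34 and 0.37 in the CL rats and 0.37, 0.56 and 0.87 in the FL rats. FL2 was level with CL7 and below CL5, and FL12 was the highest rat. Its log2 fold change was 0.48 (SE 0.33, adjusted p = 0.330) with groups that overlapped, and quantile normalization turned it to -0.13. Without FL2, Itga3 had a log2 fold change of 0.73 and an adjusted p of 0.113.

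Itgb1 (ENSRNOG00000010966, chromosome 19) is the beta subunit without which most of the alpha subunits above do not reach the cell surface. Its FPKM was 21.57 in CL5, 19.52 in CL6 and 20.42 in CL7, and 27.71 in FL2, 35.37 in FL5 and 38.78 in FL12. The CL rats differed little, and each FL rat was above all of them, with FL2 again the nearest to the CL group. The log2 fold change of Itgb1 was 0.71 (SE 0.14, 95% interval 0.38 to 1.04, adjusted p = 0.0148), a 1.64-fold increase that stayed under the limit of 2. The adjusted p of Itgb1 was above 0.05 without CL6 (0.0543), without CL7 (0.0574) and without FL5 (0.0583), and over the 14 alternatives it ranged from 0.00494, without FL2 (log2 fold change 0.85), to 0.0583. Both scalings kept it under 0.05, with log2 fold changes of 0.49 under median scaling and 0.59 under quantile normalization.

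Itgb8 (chromosome 6), the partner of Itgav in the activation of TGF-beta, was scarce. It had 0.18, 0.15 and 0.08 FPKM in the CL rats and 0.20, 0.22 and 0.45 in the FL rats. All FL rats were above the CL rats, but FL2 and FL5 only slightly, and FL12 stood alone at the top. At a log2 fold change of 0.69 (SE 0.40, 95% interval -0.24 to 1.61, adjusted p = 0.252), Itgb8 had an interval that held 0, and the estimate was 0.18 with a pseudocount of 1, 1.01 with one of 0.01 and 0.10 with quantile normalization. Without FL2 the log2 fold change of Itgb8 was 0.85 and its adjusted p 0.180.

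**Figure D2:**
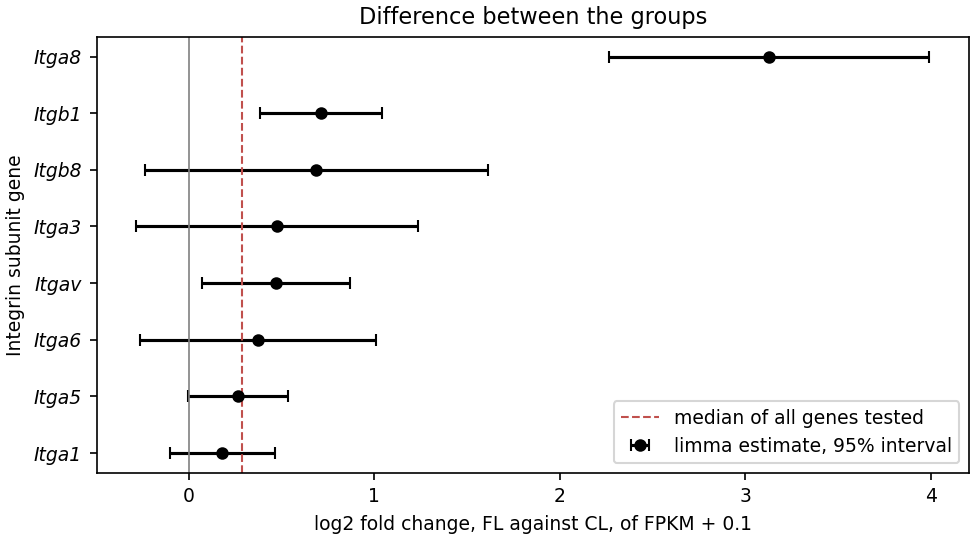
Log2 fold change of the FL against the CL group on the log2(FPKM + 0.1) scale for the 8 members tested, with points for the limma estimates, bars for their 95% intervals and a dashed line at the median of all genes tested (0.29). The interval of Itga8 (2.26 to 3.99) lies above those of the other members, and only those of Itga8, Itgb1 and Itgav lie above 0, while the estimates of Itga1 and Itga3 turned below 0 under quantile normalization (-0.028 and -0.13) and that of Itga1 under median scaling (-0.040).

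All 8 members tested had positive log2 fold changes, which 77.9% of all genes tested also had. The median over the members was 0.47 and that over all genes 0.29. Median scaling brought these to 0.27 and 0.079, with 7 of 8 members positive, and quantile normalization to 0.092 and -0.045, with 6 of 8 positive. Relative to the median of all genes, the members thus lay 0.19 higher in the values as given by the authors. Without FL2, 9 members could be tested, their median was 0.73 against 0.34 for all genes, and 3 of them (Itga8, Itgb1 and Itgav) had an adjusted p under 0.05. Leaving out any other rat gave a median of 0.34 (without FL12) to 0.52 (without CL5). The adjusted p in limma was then under 0.05 for 2 members without CL5 or FL12 and for 1 without CL6, CL7 or FL5.

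FPKM are per length of transcript, so levels, shares and ratios of different genes are set side by side here, with a limit. The annotation is not known, and only reads with a unique position were counted, so a gene may read too low. Among the collagen chains, Col1a2 had means of 0.0133 FPKM in the CL and 0.123 in the FL group, where Col1a1 had 2.67 and 64.0. The cause of that gap was not tested. In the CL group, the order of the mean FPKM was Itgb1, Itga1, Itgav, Itga5, Itga6, Itga8, Itga3, Itgb8 and Itga2, and the rats overlapped between Itga1 and Itgav, between Itga8 and Itga3 and between Itgb8 and Itga2. All other neighbours in the order were apart in the CL rats. In the FL group the order was Itgb1, Itgav, Itga1, Itga5, Itga6, Itga8, Itga3, Itgb8 and Itga2. There the rats overlapped between Itgav and Itga1, between Itga6 and Itga8, between Itga3 and Itgb8 and between Itgb8 and Itga2. These overlaps compare values of different rats. Within single rats the order of neighbours was kept, except that Itgav was above Itga1 in CL7 and Itga8 was above Itga6 in FL12. Itga8 thus moved from the level of Itga3 in the CL rats, far below Itga6 (lowest CL rat 3.83 FPKM), to a range in the FL rats that met that of Itga6. Itgb1 exceeded 90.1% of the genes tested by its CL mean and 93.6% by its FL mean, whereas Itgb8 exceeded 8.40% and 10.2%.

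The FPKM of the 7 alpha subunits summed to 34.31, 34.87 and 32.79 in the CL rats and to 38.25, 52.11 and 54.17 in the FL rats. Every FL rat was above the CL rats, FL2 by little. As a share of this sum, which does not depend on the scaling between rats, Itga8 took 1.54%, 1.23% and 1.56% in the CL rats and 6.85%, 11.6% and 14.9% in the FL rats. The share of Itga8 was therefore 1.44% ± 0.183 in the CL and 11.1% ± 4.03 in the FL group (SD, n = 3), with no overlap. Itga1 took 29.7% ± 2.29 in the CL and 24.2% ± 3.06 in the FL group, where the share in FL2 (27.7%) was higher than that in CL7 (27.3%), so the groups overlapped. Itgav kept a share of 29.7% ± 1.99 in the CL and 29.4% ± 1.39 in the FL group. Itga5 took 23.1% ± 1.04 and 20.2% ± 4.84, and Itga6 14.8% ± 3.37 and 13.6% ± 2.24, again with overlap. Itga2 and Itga3 made up 0.157% and 1.13% of the sum in the CL group and 0.279% and 1.22% in the FL group. Shares of a sum are tied to each other, so a larger share of Itga8 lowers the others, and none was tested.

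**Figure D3:**
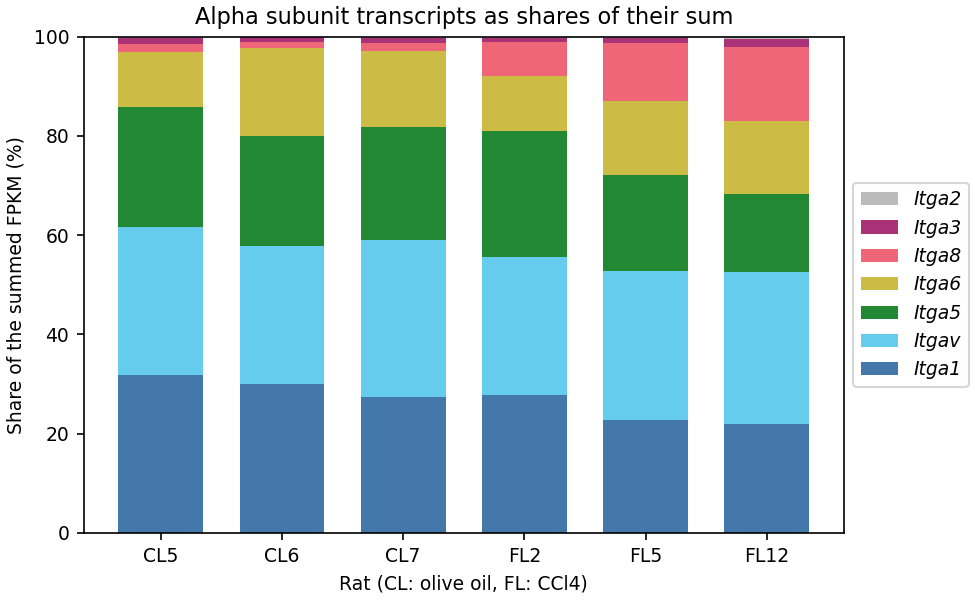
Share of each of the 7 alpha subunits in their summed FPKM, in percent, as stacked bars of full height for each CL rat (olive oil) and FL rat (CCl4). The band of Itga8 widens from between 1.23% and 1.56% in the CL rats to between 6.85% and 14.9% in the FL rats, while that of Itgav stays between 27.7% and 31.7% in all rats.

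Itgb1 can pair with each of the 7 alpha subunits, though Itgav and Itga6 also have other partners. The FPKM of the 7 was therefore also set against Itgb1 within each rat, again free of the scaling between rats. Alpha subunits outside the set were not set against Itgb1. The alpha sum per Itgb1 was 1.59, 1.79 and 1.61 in the CL rats and 1.38, 1.47 and 1.40 in the FL rats. Each FL rat was below each CL rat, so Itgb1 was higher relative to the sum of the alpha subunits in the FL group. For Itga1 alone the ratio to Itgb1 was 0.506, 0.537 and 0.438 in the CL rats and 0.382, 0.336 and 0.308 in the FL rats, and for Itgav it was 0.473, 0.494 and 0.508 against 0.384, 0.441 and 0.425, in the same order of rats. Itga5 per Itgb1 was 0.385, 0.395 and 0.368 in the CL rats and 0.351, 0.284 and 0.222 in the FL rats. The ratios of Itga1, Itgav and Itga5 were lower in every FL rat than in any CL rat. Itgb1 itself rose more than the median of all genes tested (log2 fold change 0.71 against 0.29), so a gene near that median falls relative to it. The share of all genes with such lower ratios was not worked out. Those of the other 3 overlapped, with Itga6 per Itgb1 at 0.178, 0.319 and 0.246 in the CL rats and 0.152, 0.222 and 0.205 in the FL rats. Itga3 per Itgb1 was 0.0204, 0.0174 and 0.0181 against 0.0134, 0.0158 and 0.0224, and Itga2 per Itgb1 was 0.00417, 0.00102 and 0.00245 against 0.00253, 0.00311 and 0.00619. Of these 7, Itga8 alone had a higher ratio in every FL rat than in any CL rat. It had 0.0246, 0.0220 and 0.0250 FPKM per FPKM of Itgb1 in the CL rats and 0.0946, 0.170 and 0.208 in the FL rats. These ratios are descriptions of RNA and carry no test, and the number of receptors on the cells was not measured.

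The order of the FL rats was much the same from member to member. FL12 had the highest value of its group for 8 of the 9 members, all except Itga5, and FL2 had the lowest for 8, again all except Itga5. FL2 was also the lowest FL rat for 51.2% of all genes tested, and the share with FL12 the highest was not worked out. The members were read from the same libraries, so their orders are not independent of each other. Itga8 was the only member for which FL5 and FL12 both had more than 2 times the FPKM of FL2. In the CL group no rat was lowest throughout, since CL6 was lowest for Itga2, Itga3, Itga8, Itgav and Itgb1, CL7 for Itga1, Itga5 and Itgb8, and CL5 for Itga6.

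The remaining integrin genes gave a comparison for the members. Of 8 other matrix-binding subunits, 7 were tested and 1 was a DEG, Itga9, a receptor subunit for tenascin and osteopontin, with a median log2 fold change of 0.40 over the list (-0.039 under quantile normalization). Itga9 had 4.67, 4.19 and 4.12 FPKM in the CL rats and 7.21, 9.27 and 10.76 in the FL rats, without overlap. Its log2 fold change of 1.04 (SE 0.16, adjusted p = 0.00717) was near the limit, and it fell under it with a pseudocount of 1, with both scalings and without FL12, while its adjusted p was 0.00358 to 0.0365 over the 14 alternatives. Itgb6, which like Itgb8 pairs with Itgav to activate TGF-beta, had a log2 fold change of 1.08 (SE 0.36, adjusted p = 0.0738) and was a DEG with no filter and without trend (adjusted p 0.0229 to 0.374 over the alternatives). Itgb3, another partner of Itgav, had one of -0.021 (SE 0.12, adjusted p = 0.912). Of the 7 leukocyte integrin subunits tested, which bind other cells more than matrix, 5 were upregulated DEGs (Itgax, Itgam, Itga4, Itgal and Itgb2, 4 to 6 DEGs over the alternatives), and the median was 1.57, against 0.47 for the members. Itgad was not analysed here.

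The matrix ligands of the members were read from lists of collagens, laminins and RGD proteins. Of the 8 collagen chains tested, ligands of receptors with Itga1 and Itga2, 8 were upregulated DEGs (median log2 fold change 1.90), whereas Itga1 did not pass the test and Itga2 was too low to be tested. The count was 7 with either scaling and 6 without CL7, without FL5 or with no filter. Col1a1 and Col3a1 had log2 fold changes of 4.24 (SE 0.60, adjusted p = 0.00519) and 2.37 (SE 0.32, adjusted p = 0.00490), and Col1a1 was 2.12, 3.77 and 2.12 FPKM in the CL rats against 17.00, 101.22 and 73.73 FPKM in the FL rats. Col5a2 (2.14, SE 0.31, adjusted p = 0.00565) and Col6a2 (2.04, SE 0.28, adjusted p = 0.00490) came next. Of the 9 laminin chains tested, ligands of receptors with Itga3 and Itga6, 3 were upregulated DEGs (Lama5, Lamb1 and Lama2, median 0.93). That count was 0 without CL7, without FL5 or with no filter, and 7 without FL2. Of the 14 RGD and matricellular proteins, 8 were upregulated DEGs (median 1.19), with either scaling 4 were, and with no filter 5. Tgfb3, whose latent form is bound by receptors with Itgav, had a log2 fold change of 2.80 (SE 0.33, adjusted p = 0.00339). Spp1 (osteopontin) had one of 4.53 (SE 0.85, adjusted p = 0.0119), which missed the threshold without CL7 and with no filter (0.00565 to 0.0611 over the alternatives). Postn (4.16, SE 0.68, adjusted p = 0.00800) and Fbn1 (2.08, SE 0.34, adjusted p = 0.00792) passed in all alternatives. The most abundant RGD ligands, the plasma proteins Vtn and Fn1, had log2 fold changes of -0.22 (SE 0.30, adjusted p = 0.626) and 0.10 (SE 0.23, adjusted p = 0.782). Npnt (nephronectin) was added after its values were seen, as the best-known ligand of Itga8, and had 1.01, 1.31 and 2.22 FPKM in the CL rats and 2.29, 2.82 and 3.10 in the FL rats. CL7 came close to FL2, and with a log2 fold change of 0.87 (SE 0.28, adjusted p = 0.0646) Npnt missed the threshold, but it was a DEG without CL7 (adjusted p 0.0361 to 0.343 over the alternatives).

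On the inner side of the membrane, talins and kindlins switch the beta subunits on, and adaptors and kinases such as Ilk carry the signal. Of 9 tested genes of activation, 2 were upregulated DEGs (Apbb1ip and Fermt3, the latter the kindlin of blood cells), and the median was 0.50. With a pseudocount of 1 there was 1 and with quantile normalization 0. The kindlin of other cells, Fermt2, had the highest mean of that list over the 6 rats, though Rap1b was above it in each FL rat, and it had a log2 fold change of -0.046 (SE 0.13, adjusted p = 0.824). Of 25 adaptors and kinases, 7 were upregulated DEGs, with Ptk2b (2.23, SE 0.21, adjusted p = 0.00166) at the head, then Parvg (1.47, SE 0.31, adjusted p = 0.0169), Tns2 (1.35, SE 0.12, adjusted p = 0.00165) and Tns3 (1.18, SE 0.19, adjusted p = 0.00769), and the median was 0.64. Parvg missed the threshold in 5 of the 14 alternatives (adjusted p 0.0138 to 0.0680), and Tns3 fell under the fold limit with both scalings. With median scaling 3 of the 25 were, with quantile normalization 2 and without FL5 4. Ilk, which binds the tail of Itgb1, had a log2 fold change of 0.20 (SE 0.12, adjusted p = 0.263).

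For each member tested, the gene nearest to it in pattern was taken from the 73 tested genes of the ligand, activation, adhesion and membrane partner lists, by the root mean square difference of centred log2(FPKM + 0.1) over the 6 rats. Nearest to Itga8 was Tgfb3, at a difference of 0.288, where Itga8 itself deviated from its mean by 1.64. Tgfb3 had 0.91, 1.18 and 0.80 FPKM in the CL rats and 4.25, 8.10 and 10.85 in the FL rats. The order of the FL rats was the same as for Itga8. With log2 fold changes of 3.13 for Itga8 and 2.80 for Tgfb3, the measure rests largely on the size of the group difference. Nearest to Itgb1 was Rap1b, a small GTPase that recruits talin, at 0.128, and nearest to Itgav was Cd47, a membrane protein that associates with integrins, at 0.0962. Actn4 was nearest to both Itga1 (0.0475) and Itga5 (0.0948), Lamc1 to Itga6 (0.196), Tln2 to Itga3 (0.176) and Thbs1 to Itgb8 (0.208). Members that vary little are near to many genes, so a small difference says little for Itga1 and Itga5, whose own deviations were 0.138 and 0.156.

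Markers of liver cell types are given as sums of FPKM over each list, with the most abundant gene by its mean over the 6 rats. The 8 markers of stellate cells and myofibroblasts summed to 41.7, 38.1 and 36.3 in the CL rats and to 55.2, 115 and 96.7 in the FL rats, with 4 upregulated DEGs (3 to 6 over the alternatives, 6 without FL2) and Tagln the most abundant. FL2 was the lowest FL rat here as it was for Itga8, but the FL rats had the order of Itga8 in only 3 of the 8 markers (Pdgfrb, Dcn and Lum, which were DEGs), and FL5 was above FL12 in the other 5 and in the sum. The 7 macrophage markers summed to 127, 116 and 121 against 280, 268 and 149 (3 upregulated DEGs, 2 to 4 over the alternatives, Clec4f the most abundant but Cd5l in the FL group), an order of FL rats unlike that of the members. Endothelial markers (6 used, 1 upregulated DEG, Kdr the most abundant but Lyve1 in the FL group) summed to 66.9, 68.0 and 60.2 against 82.8, 73.9 and 80.4, and the 5 cycling markers (1 upregulated DEG, Pcna the most abundant) to 6.14, 6.68 and 5.69 against 8.43, 19.8 and 18.8. The 5 cholangiocyte markers (0 DEGs, 1 without FL2, Epcam the most abundant) summed to 5.38, 7.75 and 5.58 against 5.38, 8.06 and 11.3, and the 6 lymphocyte markers (0 DEGs, 1 without FL12, Cd79a the most abundant but Nkg7 in the CL group) to 1.33, 1.40 and 1.95 against 3.02, 3.04 and 1.51, with Ms4a1 at 0 in CL5. The 6 hepatocyte markers, led by Alb, defined the tissue in every rat and summed to between 38893 and 41317 in the CL and between 29666 and 32703 in the FL rats, with 0 DEGs in limma at the limits above (1 without FL2). The single endothelial DEG was kept in 4 and the single cycling DEG in 3 of the 14 alternatives, and without FL2 the cycling markers had 4. In the lists with 0 DEGs, limma gave an unadjusted p under 0.05 for 1 higher and 0 lower cholangiocyte, 1 higher and 0 lower lymphocyte, and 2 higher and 0 lower hepatocyte markers. Yet 3 hepatocyte markers (Alb, Ttr and Hnf4a) were lower in every FL rat than in any CL rat and 1 (Apoa1) was higher, and the SE of Alb in limma was 0.98. No marker was at 0 in all rats. For Itga8, Itgb1 and the other members, the part of these cell types in the result was not tested.

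The promoters of Itga8 and Itgb1, the members with an adjusted p under 0.05, are shown side by side. Both are RefSeq sequences of the rat (build GRCr8), 300 bases from 250 before to 50 after the start of the gene, printed 5′ to 3′ on the strand of the gene. Capitals mark the GC box, the letters GGGCGG on either strand. Itga8 lies on the minus strand at chr17:80410584-80410883 and Itgb1 on the plus strand at chr19:73602027-73602326.
Itga8: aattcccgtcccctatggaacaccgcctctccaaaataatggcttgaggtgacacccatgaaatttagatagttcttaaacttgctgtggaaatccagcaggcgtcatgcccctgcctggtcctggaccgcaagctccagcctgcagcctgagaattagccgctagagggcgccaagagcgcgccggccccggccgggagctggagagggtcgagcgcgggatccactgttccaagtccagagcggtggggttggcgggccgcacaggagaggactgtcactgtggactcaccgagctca
Itgb1: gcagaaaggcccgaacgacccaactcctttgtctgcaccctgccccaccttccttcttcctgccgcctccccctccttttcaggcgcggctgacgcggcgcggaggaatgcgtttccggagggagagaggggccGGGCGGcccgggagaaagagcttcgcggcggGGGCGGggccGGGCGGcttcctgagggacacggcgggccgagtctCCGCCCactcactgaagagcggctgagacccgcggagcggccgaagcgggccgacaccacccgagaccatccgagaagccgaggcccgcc
The GC box occurred 4 times in the promoter of Itgb1 and 0 times in that of Itga8, and 33.1% of all 33469 promoters of this length held it. RefSeq promoters were matched for 8 of the 9 members with values, all except Itga6, and 6 of the 8 held a GC box (Itga2, Itga3, Itga5, Itgav, Itgb1 and Itgb8). The letters GGAATG, bound by TEAD factors, were found in 3 of the 8 (Itga3, Itgb1 and Itgb8) and in 14.2% of all promoters, and CAGAC, which holds a SMAD core, in 6 of the 8 and in 50.1% of all, on either strand. An AP-1 motif, with the letters TGACTCA, was in 0 of the 8 and in 4.63% of all promoters, on either strand. Likewise 0 of the 8 held an E box, spelled CACGTG, which 6.42% of all promoters held. The TATA box searched, spelled TATAAA, was in 0 of the 8 and in 14.2% of all, and the CArG box in 0 of the 8 and in 1.64% of all. None of these 7 motifs was found in the Itga8 window. The promoters of Itga8 and Itgb1 were 60.3% and 71.7% G or C, above the median of 51.7% over all promoters, which favours letters such as the GC box. A match is a description of the letters and not a binding site, and its absence says only that the letters are not in this window.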

How the data were processed

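RNA of 3 FL and 3 CL rat livers was sequenced by the study. Reads were trimmed (FASTX-Toolkit) and aligned (TopHat2) by the authors, who counted those with a unique position on each gene, and the deposited values are FPKM with 2 decimals for each rat. The submitters' processing notes name the genome GRCh38, a human build, whereas the gene identifiers are rat ones of Ensembl. The annotation and the strand of counting are not given in the sources used here. Another 2 columns of values match no sample and were not used. Groups and rat numbers came from the labels.

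FPKM are not counts, so log2(FPKM + 0.1) was compared with limma 3.58.1 (trended prior variance) in R 4.3.3, with Benjamini-Hochberg adjustment over the 14864 genes whose mean reached 0.1 FPKM. SE and intervals are limma's, other errors are SD over 3 rats. Sums, shares and figures used Python 3.11.15 with pandas 2.3.3, numpy 2.4.6 and matplotlib 3.10.9. The procedure was tested on simulated data. The genes named were all members, some of the other integrin subunits, of each other list up to 4 DEGs with the largest change and the 2 most abundant genes, the gene nearest to each member, and of marker lists the most abundant gene and any at 0. Further genes are named as exceptions. Of the marker lists, 1 gene is not reported here. The members and lists were chosen with earlier results of these data known. Itgb5, Itgad, Col6a3 and Pecam1 were not analysed here. Alternatives were other pseudocounts (1 and 0.01), no filter or a mean of at least 1 FPKM, quantile normalization, median scaling, a robust or untrended prior in limma, no fold limit and leaving out each rat in turn.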

Additional observations from a re-analysis of the deposited data

How the results depend on the processing

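Of the members, 1 was an upregulated and 0 were downregulated DEGs under each alternative that kept the limit on the fold change, and without that limit 2 were upregulated (Itga8 and Itgb1). Among all genes, 1381 were upregulated and 139 downregulated DEGs. These became 462 and 72 with a pseudocount of 1, 846 and 78 with no filter on low values, 453 and 231 with quantile normalization, and 2518 and 288 without a limit on the fold change. Upregulated DEGs numbered 854 at a mean of at least 1 FPKM, where fewer genes were tested, and 826 with median scaling, beside 181 downregulated ones. Leaving out each rat in turn gave 740 (without CL7) to 1831 (without FL2) upregulated and 81 (without CL6 or CL7) to 160 (without FL2) downregulated DEGs, with 745 upregulated without FL5. The cause of these shifts was not tested.

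Reversed signs were seen for Itga1 with median scaling (-0.040) and quantile normalization (-0.028) and for Itga3 with quantile normalization (-0.13), neither of which passed the test under any alternative. The log2 fold changes of Itga5, Itga6, Itga8, Itgav, Itgb1 and Itgb8 were positive under all alternatives run. At a mean of at least 1 FPKM, Itga3 and Itgb8 were not tested. No paired analysis was possible because the groups share only 1 rat number (5), which does not tie the rats together. With 3 rats per group and no read counts, the counting error of low values (Itga2, Itga3 and Itgb8) is unknown. Where an alternative left 2 rats in a group, limma pooled the spread over both groups.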

Other observations

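Of the 8 membrane partners of integrins tested, 2 were upregulated DEGs, the tetraspanins Cd63 (log2 fold change 1.58, SE 0.22, adjusted p = 0.00519) and Cd9 (1.56, SE 0.31, adjusted p = 0.0151). The adjusted p of Cd9 was above 0.05 without CL7, without FL5, with no filter and with quantile normalization (0.00593 to 0.0616 over the alternatives), whereas that of Cd63 stayed under it. Cd63 had 9.98, 7.91 and 6.52 FPKM in the CL rats and 23.07, 32.45 and 18.97 in the FL rats, so every FL rat was above the CL rats, with FL12 the lowest of its group in contrast to Itga8. The most abundant partner, Cd81, had a log2 fold change of -0.092 (SE 0.13, adjusted p = 0.644), and the next, Slc3a2, one of 0.21 (SE 0.31, adjusted p = 0.651). The median over these partners was 0.47, the same as over the integrin members to 2 decimals.

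A single gene among the adhesion adaptors had an adjusted p under 0.05 in the downward direction, Arhgef7, an exchange factor that binds paxillin complexes, and it was picked out after its values were seen. It had 12.61, 14.43 and 12.20 FPKM in the CL rats and 8.07, 9.53 and 7.85 in the FL rats. All FL rats were below all CL rats, and its log2 fold change was -0.62 (SE 0.13, adjusted p = 0.0161), with an adjusted p of 0.0599 without CL6 (0.00772 to 0.0599 over the alternatives).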
